A study of Mus musculus with 15 samples.

Results

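The transcription factor NRF2 and 9 of the genes it controls were followed in mouse embryonic fibroblasts of 4 genotypes. The 10 genes were Nfe2l2, which encodes NRF2, and the targets Nqo1, Hmox1, Gclc, Gclm, Txnrd1, Srxn1, Slc7a11, Gsta4 and Gstm1. They were chosen by name, and every probe that carried 1 of these names on the array was taken, which gave 19 of 41174 probes. Of these, 18 were bright enough to test, among 27700 tested probes and 18710 tested genes, and all 10 genes kept at least 1 tested probe. The probe left out, A_52_P298824 of Slc7a11, was well above background on 3 of 15 arrays. Of the 18 tested probes, 17 were well above background on all 15 arrays, and 1 Nfe2l2 probe (A_52_P1107697) on 11.

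The arrays covered 3 double knock-out samples that lack p27 and stathmin, 4 p27 knock-out samples, 4 stathmin knock-out samples and 4 wild type samples. p27, encoded by Cdkn1b, inhibits cyclin-dependent kinases, and stathmin, encoded by Stmn1, destabilises microtubules. All cells were fibroblasts at passage 3 from embryos of the C57B6 background at 13.5 days, harvested at high confluence after 24 h without serum. No treatment with an oxidant or electrophile is named. Arrays of 1 genotype are named biological replicates, and neither the knock-out alleles nor the embryos behind each culture are given. Each array set a Cy5-labelled sample against a Cy3-labelled pool of fibroblast RNA, so that a value is a log2 ratio of sample over pool. A value of 0 means a level equal to that of the pool, and the genotypes in the pool are not given in the labels. The number of arrays limits the precision of every comparison.

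Between 59.3 and 78.9% of spots had a sample signal well above background. All 12 fibroblast markers were well above background on every array, and 14 to 16 of 16 macrophage and blood markers were as well. The summed signal of the macrophage and blood markers ran from 57516 to 881824 in double knock-out, from 44900.0 to 1168659 in p27 knock-out, from 105517 to 195814 in stathmin knock-out and from 83367 to 290144 in wild type. The summed signal of 8 epithelial markers ran from 7713 to 11421 in double knock-out. In p27 knock-out it ran from 4654 to 10596, and in stathmin knock-out from 4218 to 7862. In wild type it was 13112 to 19871, above every knock-out array. Summed signals of erythroid, endothelial, hepatocyte, skeletal muscle and neural markers overlapped between wild type and each knock-out. The part of the epithelial markers in the member values was not tested. In a bulk sample, fewer cells of a type and less RNA per cell cannot be told apart. A probe of Stmn1, A_52_P319161, averaged -2.77 ± 0.08 in double knock-out (SD, n = 3) and -2.78 ± 0.15 in stathmin knock-out (n = 4), against 0.76 ± 0.10 in wild type (n = 4). The other tested Stmn1 probe read -0.24 ± 0.19 in double knock-out, -0.51 ± 0.36 in stathmin knock-out and -0.11 ± 0.35 in wild type. The tested Cdkn1b probe averaged -0.75 ± 0.83 in double knock-out (n = 3) and -0.34 ± 0.52 in p27 knock-out (n = 4), against 0.22 ± 0.50 in wild type (n = 4), and its difference passed in neither comparison. Genotype and position on the slide cannot be told apart, because a genotype always took the same position.

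NRF2 is held low in resting cells by Keap1, which binds it and hands it to a Cul3 ubiquitin ligase for destruction. Oxidants and electrophiles modify cysteines of Keap1, newly made NRF2 then escapes degradation, enters the nucleus, pairs with small Maf proteins and binds antioxidant response elements. Its targets make and recycle glutathione and thioredoxin, conjugate reactive lipids, reduce quinones and break down haem. NRF2 is regulated mainly through the stability of the protein, so the Nfe2l2 transcript need not follow its activity. The array measures transcripts only.

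The promoters of the genes were searched for the core of this element, because Txnrd1, Srxn1 and Gclc varied together across arrays. The sequences come from RefSeq on GRCm38.p6 and span 250 bases before to 50 bases after a start of the gene. Windows were matched for 7 of the 10 genes, and Hmox1, Gclc and Gsta4 were not matched. Txnrd1 had 3 windows, Gstm1 had 2 and the other matched genes had 1 each. Each line gives the stretch in the direction of its gene, 5′ to 3′, with the match in capitals.
Nfe2l2, bases -240 to -232, chr2:75704875-75704913, minus strand: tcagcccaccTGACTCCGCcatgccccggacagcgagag
Gclm, bases -134 to -126, chr3:122245403-122245451, plus strand: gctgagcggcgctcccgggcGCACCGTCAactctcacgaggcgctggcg
Txnrd1, bases -92 to -84, chr10:82859094-82859142, plus strand: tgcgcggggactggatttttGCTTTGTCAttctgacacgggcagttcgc
Srxn1, bases -102 to -96, chr2:152105402-152105448, plus strand: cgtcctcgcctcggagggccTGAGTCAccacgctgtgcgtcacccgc
Srxn1, bases -45 to -37, chr2:152105459-152105507, plus strand: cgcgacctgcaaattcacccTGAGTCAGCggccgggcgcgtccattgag
The core TGACNNNGC was searched on both strands and matched in 4 of the 7 genes, namely Nfe2l2, Gclm, Txnrd1 and Srxn1. In Gclm and Txnrd1 the match lay on the opposite strand, so the capitals show its reverse complement. The Txnrd1 match lay in 1 of its 3 windows, at a start inside the gene, which spans chr10:82833951-82897724. The other Txnrd1 windows held no match. The Srxn1 match lay after the start, at 28 to 36, and is not shown. Of all 32851 promoter windows, 12.39% held this core, and 3781 of the 27025 genes with a window had it in at least 1. The sequence TGAGTCA, to which AP-1 and related factors bind, matched at 2 places in Srxn1 and in 0 of the other genes. It was in 5.2% of all windows and in 1607 of the 27025 genes. The longer form TGANTCAGC, which overlaps the second of the 2 places, matched in Srxn1 alone among the 7 genes. It was in 1.19% of windows and in 369 of the 27025 genes. A match is a run of letters only, and binding was not measured here.

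For no gene of the set did a difference between genotypes pass the test against the spread of the arrays. Of the 18 member probes, 0 passed limma's test at an adjusted p under 0.05 in any of 6 comparisons. Limma called 0% of 27669 probes in p27 knock-out against wild type, 0.00723% of 27677 in stathmin knock-out against wild type and 0.00361% of 27677 in double knock-out against wild type. It called 0.00361% of 27692 probes in double knock-out against p27 knock-out, 0% of 27700 in double knock-out against stathmin knock-out and 0% of 27669 in the interaction. The interaction asks whether the double knock-out differs from the sum of the single knock-outs. At an unadjusted p under 0.05 the member probes also numbered 0 of 18 in every comparison. The share of all probes at that level was 5.82%, 4.8% and 2.26% in the comparisons of p27, stathmin and double knock-out with wild type. It was 2.89% in double knock-out against p27 knock-out, 3.54% in double knock-out against stathmin knock-out and 7.26% in the interaction. The lowest adjusted p of a member probe was 0.797, 0.917 and 1 in the comparisons of p27, stathmin and double knock-out with wild type, and 0.684 in the interaction.

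**Figure D1:**
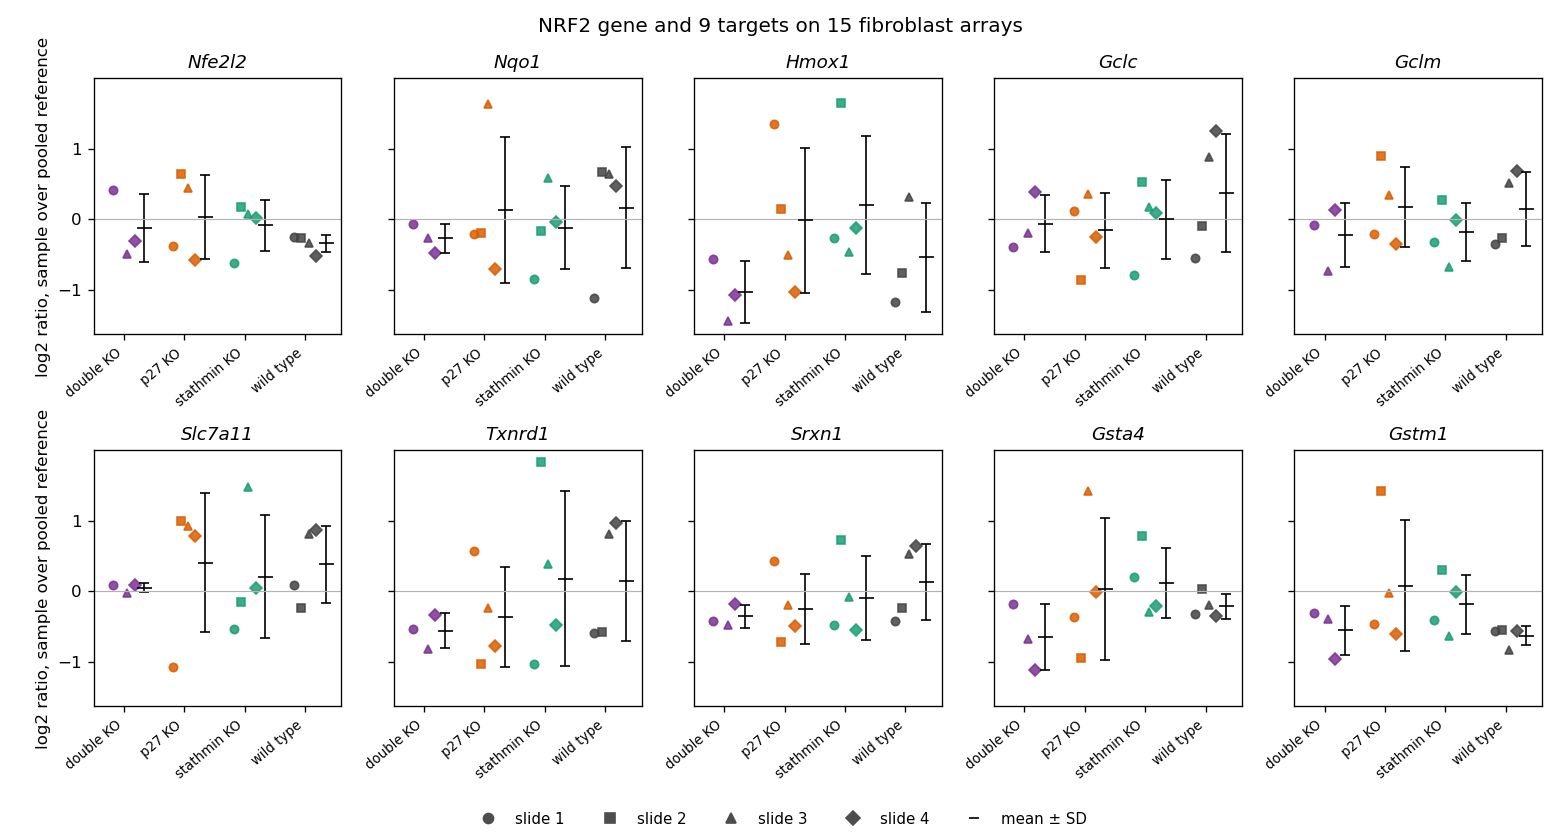
Log2 ratio of sample over pooled reference (vertical axis) of the brightest tested probe of each gene, with 1 point per array, genotypes along the horizontal axis, symbols for the 4 slides, and the mean ± SD of each genotype (n = 3, 4, 4 and 4, and 3 for Hmox1 in wild type). The points of the genotypes overlap in most panels, and single arrays such as stathmin knock-out 2 for Txnrd1 (1.83) stand high.

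Txnrd1, Srxn1 and Gclc act on cysteine oxidation and glutathione supply and varied together from array to array. Txnrd1 encodes cytosolic thioredoxin reductase, which keeps thioredoxin reduced with NADPH. Its ratio was -0.53, -0.81 and -0.33 in double knock-out, 0.57, -1.02, -0.24 and -0.78 in p27 knock-out, -1.02, 1.83, 0.39 and -0.47 in stathmin knock-out and -0.59, -0.58, 0.81 and 0.96 in wild type. Stathmin knock-out 2 was the highest array and wild type 3 and 4 came next. The lowest arrays were stathmin knock-out 1 and p27 knock-out 2, so each genotype with 4 arrays held high and low arrays. The difference of double knock-out from wild type was -0.71 (95% interval -2.02 to 0.60, limma adjusted p = 1), and within slides it ran from -1.62 to 0.06. Without wild type 4 the difference was -0.44, without wild type 3 it was -0.49, and with these 2 arrays averaged it was -0.46. Over the brightest tested probe of each gene, the log2 ratios of wild type 3 and 4 had r = 0.837. Genotype means were not taken out, so this value includes any pattern that all arrays share against the pool. The raw reference signal of the Txnrd1 spot was 41589 on stathmin knock-out 2, the lowest of 15 arrays, against a highest value of 96505 on stathmin knock-out 1. Its sample signal was 311437 on stathmin knock-out 2, the highest of the 15.

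Srxn1 encodes sulfiredoxin, which repairs overoxidised peroxiredoxins. The brightest of its 3 probes read -0.41, -0.47 and -0.17 in double knock-out, 0.42, -0.72, -0.19 and -0.49 in p27 knock-out, -0.48, 0.73, -0.08 and -0.55 in stathmin knock-out and -0.41, -0.23, 0.53 and 0.65 in wild type. The order of the arrays was close to that of Txnrd1, with stathmin knock-out 2, wild type 4 and wild type 3 highest and p27 knock-out 2 lowest. The 3 Srxn1 probes gave almost the same pattern, with r between 0.906 and 0.996 over 15 arrays. The difference of double knock-out from wild type was -0.48 (SE 0.351, limma adjusted p = 1), and -0.31 without wild type 4. The other Srxn1 probes gave -0.36 and -0.30. All 3 probes had a slide on which the difference was close to or above 0.

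Gclc encodes the catalytic subunit of glutamate-cysteine ligase, the rate-limiting enzyme of glutathione synthesis. Its ratio was -0.39, -0.19 and 0.39 in double knock-out, 0.12, -0.86, 0.36 and -0.24 in p27 knock-out, -0.78, 0.53, 0.17 and 0.09 in stathmin knock-out and -0.55, -0.10, 0.88 and 1.25 in wild type. Wild type 4 and wild type 3 were the highest arrays, and the other wild type arrays lay among the knock-outs. The difference from wild type was -0.43 in double knock-out, -0.53 in p27 knock-out and -0.37 in stathmin knock-out (limma adjusted p = 1, 0.812 and 0.932). Single arrays moved these values. Without wild type 4 they were -0.14 in double, -0.23 in p27 and -0.07 in stathmin knock-out, and without wild type 1 they were -0.74, -0.83 and -0.67. The double knock-out value was also -0.27 without double knock-out 1, -0.66 without double knock-out 3 and -0.26 without wild type 3. The p27 knock-out value was -0.29 without p27 knock-out 2, and the stathmin knock-out value was -0.10 without stathmin knock-out 1 and -0.20 without wild type 3. Gclm encodes the modifier subunit, which raises the efficiency of the enzyme. Its group means were -0.23 ± 0.45 in double knock-out, 0.17 ± 0.56 in p27 knock-out, -0.18 ± 0.41 in stathmin knock-out and 0.15 ± 0.53 in wild type (SD, n = 3, 4, 4 and 4). The highest Gclm value was 0.89, on p27 knock-out 2, the array on which Gclc had its lowest, -0.86. Across arrays the subunits had r = 0.372 and rho = 0.414, which did not pass after adjustment over 36 pairs (permutation test, adjusted p = 0.486 and 0.453).

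The 36 pairs among the 9 targets were compared across the 15 arrays by two-sided permutation tests of Pearson's r and Spearman's rho, each adjusted over the 36 pairs. All ratios share the pooled reference, and the arrays share 4 slides. The pairs of Txnrd1, Srxn1 and Gclc passed by both measures. Txnrd1 with Srxn1 had r = 0.953 and rho = 0.889 (permutation test, adjusted p = 0.00036 and 0.0009). Gclc with Srxn1 had r = 0.822 and rho = 0.839 (permutation test, adjusted p = 0.0013 and 0.0017). Gclc with Txnrd1 had r = 0.789 and rho = 0.907 (permutation test, adjusted p = 0.0031 and 0.00036). Without stathmin knock-out 2 and wild type 4, the arrays farthest from the median of Txnrd1, r of Txnrd1 with Srxn1 was 0.932. Without wild type 4 and p27 knock-out 2, r was 0.733 for Gclc with Srxn1 and 0.741 for Gclc with Txnrd1. With genotype means taken out, the 3 values were 0.967, 0.809 and 0.809 in the same order of pairs, and with slide means taken out they were 0.955, 0.954 and 0.901. In the sample channel alone they were 0.928, 0.806 and 0.82. The share of all gene pairs with r as high was not computed, so these relations are not shown to be particular to the set.

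**Figure D2:**
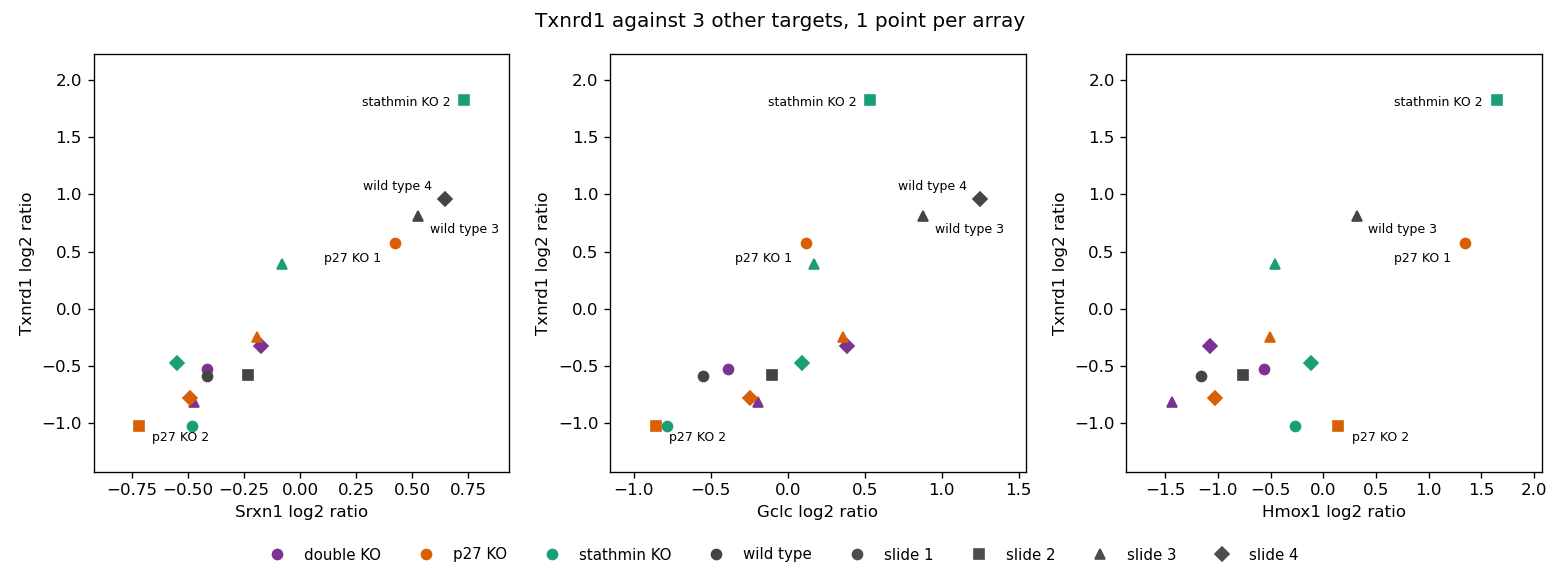
Log2 ratio of Txnrd1 (vertical axes) against that of Srxn1, Gclc and Hmox1 (horizontal axes), with 1 point per array, colours for genotype and symbols for slide. The points rise together in the plots of Srxn1 (r = 0.953) and Gclc (r = 0.789), while in that of Hmox1 stathmin knock-out 2 and p27 knock-out 1 lie apart from the others.

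Over all 36 pairs r was above 0 in 31, with a median of 0.31 and a range from -0.38 to 0.95. For all pairs of tested genes the median r was 3.6e-05. Hmox1 passed by r but not by rho with Txnrd1 (r = 0.745, rho = 0.516, permutation test, adjusted p = 0.038 and 0.31, 14 arrays). It did the same with Srxn1 (r = 0.719, rho = 0.332, permutation test, adjusted p = 0.044 and 0.48). Without stathmin knock-out 2 and p27 knock-out 1, r was 0.354 with Txnrd1 and 0.278 with Srxn1, so both relations rest on those arrays.

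Hmox1 encodes haem oxygenase 1, which breaks haem down to biliverdin, iron and carbon monoxide. It is also induced by other stress pathways. Its ratio was -0.56, -1.44 and -1.07 in double knock-out, 1.35, 0.14, -0.50 and -1.03 in p27 knock-out, -0.27, 1.64, -0.46 and -0.12 in stathmin knock-out and -1.16, -0.76 and 0.32 on wild type arrays 1 to 3. The spot of wild type 4 was marked as an outlier by the scanner software and has no value in the fit. The 3 double knock-out arrays all lay below the 4 stathmin knock-out arrays, and the other groups overlapped. This was the only one of the 18 member probes whose double and stathmin knock-out arrays did not overlap, where 4.94% of 27693 probes had such a gap. In the comparisons of double knock-out with wild type and with p27 knock-out, of p27 knock-out with wild type and of stathmin knock-out with wild type, 0 member probes had one, against 6.47%, 3.21%, 2.32% and 3.11% of all probes. Hmox1 differed by -1.22 between double and stathmin knock-out (95% interval -2.53 to 0.08, limma adjusted p = 1), and by -0.74 without stathmin knock-out 2. Within slides the difference ran from -0.98 to -0.29. Hmox1 also had the interaction value farthest from 0 in the set, -1.75 (SE 0.85, adjusted p = 0.684), which was -1.27 without stathmin knock-out 2 and -1.30 without p27 knock-out 1.

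Nqo1 encodes a quinone reductase that is widely used as a readout of NRF2 activity. Its ratio was -0.07, -0.27 and -0.47 in double knock-out, -0.20, -0.20, 1.63 and -0.70 in p27 knock-out, -0.85, -0.17, 0.59 and -0.04 in stathmin knock-out and -1.12, 0.67, 0.64 and 0.47 in wild type. Its highest value came from p27 knock-out 3 and its lowest from wild type 1, and the other 3 wild type arrays lay between 0.47 and 0.67. The differences from wild type were -0.44 in double knock-out, -0.03 in p27 knock-out and -0.29 in stathmin knock-out, each with an interval that reached at least 0.72 to either side of 0 (limma adjusted p = 1, 0.994 and 0.959). Without wild type 1 they were -0.86 in double, -0.46 in p27 and -0.71 in stathmin knock-out. Without wild type 2 they were -0.27, 0.13 and -0.12, and without wild type 3 they were -0.28, 0.12 and -0.13, in the same order. Without p27 knock-out 3 the p27 knock-out value was -0.53, without p27 knock-out 4 it was 0.24, and without p27 knock-out 1, p27 knock-out 2 or wild type 4 it was 0.07 or 0.08. The stathmin knock-out value was -0.04 without stathmin knock-out 1, -0.52 without stathmin knock-out 3 and -0.18 without wild type 4. Slc7a11 encodes the light subunit of the cystine-glutamate antiporter, which imports cystine for glutathione synthesis. The brightest of its probes read 0.09, -0.02 and 0.09 in double knock-out, -1.07, 0.99, 0.92 and 0.78 in p27 knock-out, -0.53, -0.15, 1.47 and 0.04 in stathmin knock-out and 0.09, -0.24, 0.81 and 0.87 in wild type. On p27 knock-out 1 the probe was low while the other 3 p27 knock-out arrays lay between 0.78 and 0.99. The next probe by pattern, A_52_P663446, followed it with r = 0.974, and the third tested probe, A_51_P129502, with r = 0.701.

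The glutathione transferases Gsta4 and Gstm1 conjugate reactive products to glutathione, and Gsta4 is known for its activity on 4-hydroxynonenal. Gsta4 read -0.17, -0.67 and -1.11 in double knock-out, -0.36, -0.93, 1.42 and -0.0039 in p27 knock-out, 0.20, 0.78, -0.30 and -0.21 in stathmin knock-out and -0.32, 0.04, -0.20 and -0.35 in wild type. The lowest arrays were double knock-out 3 and p27 knock-out 2, and the highest was p27 knock-out 3, followed by stathmin knock-out 2. The array prints the Gsta4 probe as 10 spots, which gives the error between spots of 1 hybridisation. The SD among the 10 spots of an array was 0.038 to 0.14 with a median of 0.088, and the SD of the 15 array means was 0.62. Spots of an array share its labelling and hybridisation, so error from these steps is not in the first value, and it cannot be told apart from differences between cultures in the second. The differences of double knock-out from p27 and stathmin knock-out were -0.68 (SE 0.439) and -0.77 (SE 0.439), with a limma adjusted p of 1 for each. The value against p27 knock-out was -0.22 without p27 knock-out 3 and -0.45 without double knock-out 3.

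**Figure D3:**
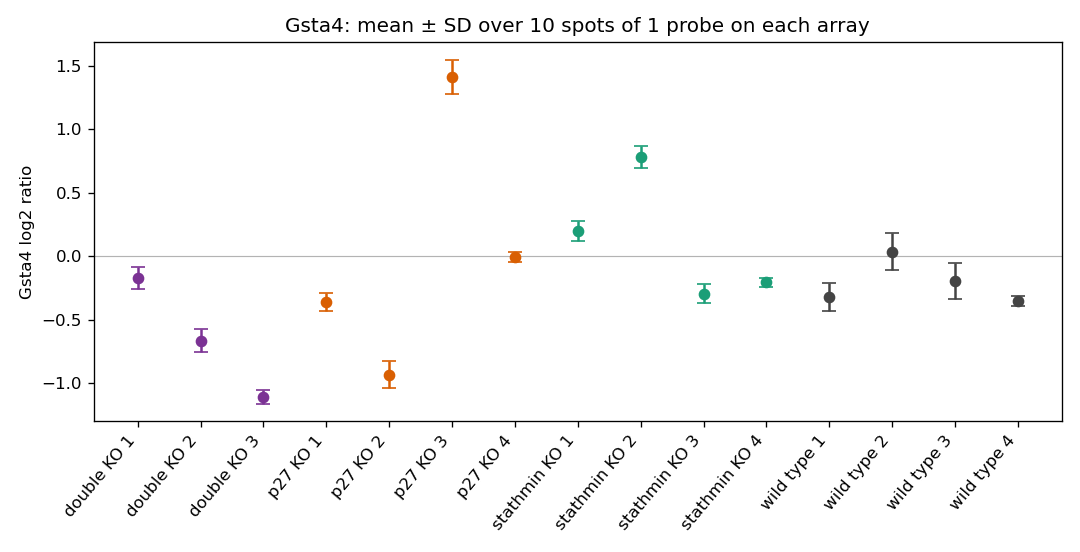
Gsta4 log2 ratio (vertical axis) on each of the 15 arrays (horizontal axis, by genotype and replicate), as the mean ± SD over the 10 spots of the probe. The means of p27 knock-out run from -0.93 to 1.42, and the spot SD is at most 0.14, which leaves out error shared by the spots of an array.

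Gstm1 read -0.31, -0.40 and -0.96 in double knock-out, -0.47, 1.42, -0.02 and -0.61 in p27 knock-out, -0.41, 0.30, -0.63 and -0.0073 in stathmin knock-out and -0.57, -0.54, -0.82 and -0.57 in wild type. The wild type arrays lay close together, between -0.82 and -0.54, and p27 knock-out 2 stood above every other array. Its difference of p27 knock-out from wild type, 0.70 (95% interval -0.08 to 1.49, limma adjusted p = 0.797), was the farthest above 0 of the set in that comparison, and it was 0.26 without p27 knock-out 2. The mean log2 ratio of the 16 macrophage and blood markers was 2.24 on p27 knock-out 2, the highest of 15 arrays, and between -2.91 and 0.28 on the other p27 knock-out arrays. The mean of the 12 fibroblast markers was also highest there, at 1.71, against 0.15 to 0.38 on the other p27 knock-out arrays. The part of these markers in the Gstm1 value was not tested. In stathmin knock-out Gstm1 differed from wild type by 0.44 (adjusted p = 0.917), and by 0.28 without stathmin knock-out 2. Within slides it ran from 0.15 to 0.85. The second Gstm1 probe, A_52_P415215, followed the first over the arrays (r = 0.975). It differed from wild type by 0.79 in p27 knock-out and by 0.38 in stathmin knock-out, where within slides it ran from -0.22 to 0.81. Members of the Gstm family are similar in sequence, so these probes may also read other family members.

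The Nfe2l2 transcript itself was read by 4 probes that fell into 2 pairs. Those named for the RefSeq transcript NM_010902 followed each other (r = 0.959). The brighter one, A_52_P396436, read 0.41, -0.49 and -0.30 in double knock-out, -0.37, 0.64, 0.45 and -0.58 in p27 knock-out, -0.61, 0.17, 0.08 and 0.02 in stathmin knock-out and -0.25, -0.26, -0.33 and -0.51 in wild type. The wild type arrays lay within 0.26 of each other, and each knock-out genotype spread over 0.79 or more. The difference from wild type was 0.21 in double knock-out, 0.37 in p27 knock-out and 0.26 in stathmin knock-out (limma adjusted p = 1, 0.809 and 0.932). The double knock-out value was -0.06 without double knock-out 1 and 0.40 without double knock-out 2. The p27 knock-out value was 0.17, 0.24 and 0.58 without p27 knock-out 2, 3 and 4, and the stathmin knock-out value was 0.43 without stathmin knock-out 1 and 0.17 without stathmin knock-out 2. The probes named for the cDNA clones AK029360 and AK031731 followed each other (r = 0.839) and had r of 0.304 to 0.383 with the NM_010902 probes. The AK029360 probe, A_52_P523835, read -0.59, -1.74 and -1.26 in double knock-out, 0.84, 0.88, -0.03 and -1.71 in p27 knock-out, -1.34, 1.76, -0.43 and 0.44 in stathmin knock-out and -1.65, -0.12, 0.72 and 1.26 in wild type. Its difference from wild type was -1.25 in double knock-out, -0.06 in p27 knock-out and 0.05 in stathmin knock-out (limma adjusted p = 1, 0.994 and 0.996), so in double knock-out its sign was opposite to that of the brightest probe. It spanned 3.50 on the log2 scale over the 15 arrays, against 1.25 for the brightest probe. Of the 9 targets its r was highest with Hmox1 (0.879, 14 arrays), Txnrd1 (0.713), Gclm (0.694) and Srxn1 (0.662), where the brightest probe had 0.247, 0.0072, 0.408 and -0.18. It was 0.527 with Gclc, 0.46 with Nqo1, 0.44 with Gstm1, 0.213 with Gsta4 and 0.0629 with Slc7a11. These correlations of the AK029360 probe were looked at after its values were seen and carry no test. The files do not place the probes within the gene, so the part of the transcript each reads is not known here.

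**Figure D4:**
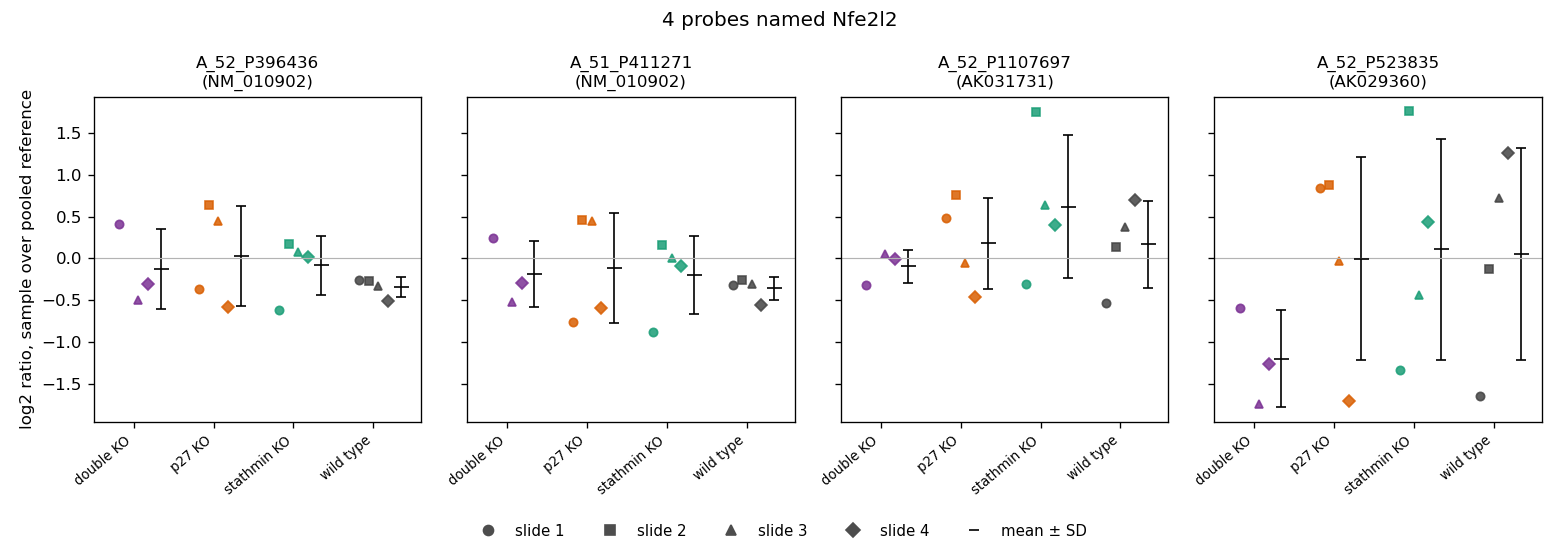
Log2 ratio of sample over pooled reference (vertical axis) for the 4 probes named Nfe2l2, with 1 point per array, genotypes along the horizontal axis, symbols for slide and the mean ± SD of each genotype. The NM_010902 probes span 1.25 and 1.33 over the arrays, and the AK029360 probe spans 3.50.

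The 9 targets were set against the brightest Nfe2l2 probe over the 15 arrays, with two-sided permutation tests adjusted over 9 relations. Gstm1 passed by r (r = 0.707, permutation test, adjusted p = 0.017) and not by rho (rho = 0.529, permutation test, adjusted p = 0.4). Without p27 knock-out 2 and 3, the arrays farthest from the Nfe2l2 median, r was 0.481 and did not pass (permutation test, adjusted p = 0.75). With genotype means taken out r was 0.676 (adjusted p = 0.36) and with slide means taken out 0.65 (adjusted p = 0.14), both by permutation within those classes. In the sample channel alone r was 0.597 (permutation test, adjusted p = 0.12). The other 8 targets had r between -0.18 and 0.41, none of which passed.

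The centre of the 10 genes lay near 0 in the single knock-outs and below 0 in double knock-out. The median log2 difference of the 10 genes was 0.02 in p27 knock-out against wild type, with 6 genes above 0 (49.7% of all probes lay above 0), and -0.07 in stathmin knock-out against wild type, with 5 above 0 (50.4% of all probes). In double knock-out against wild type it was -0.43, with 2 of 10 genes above 0 (48.9% of all probes). In double against p27 knock-out it was -0.37 with 1 above 0 (50.2%), and in double against stathmin knock-out -0.21 with 0 above 0 (50.2%). The median interaction was -0.20, with 2 of 10 above 0 (49.8%). The median over 18710 genes was between -0.02 and 0.02 in each comparison. The 3 comparisons of double knock-out share its arrays, and those with wild type share the wild type arrays. All 10 genes were read from the same arrays and are not independent, so the counts are descriptions and carry no test. With wild type 3 and 4 averaged, the medians were -0.26 in double, 0.17 in p27 and 0.10 in stathmin knock-out against wild type, the last opposite in sign to the value above.

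**Figure D5:**
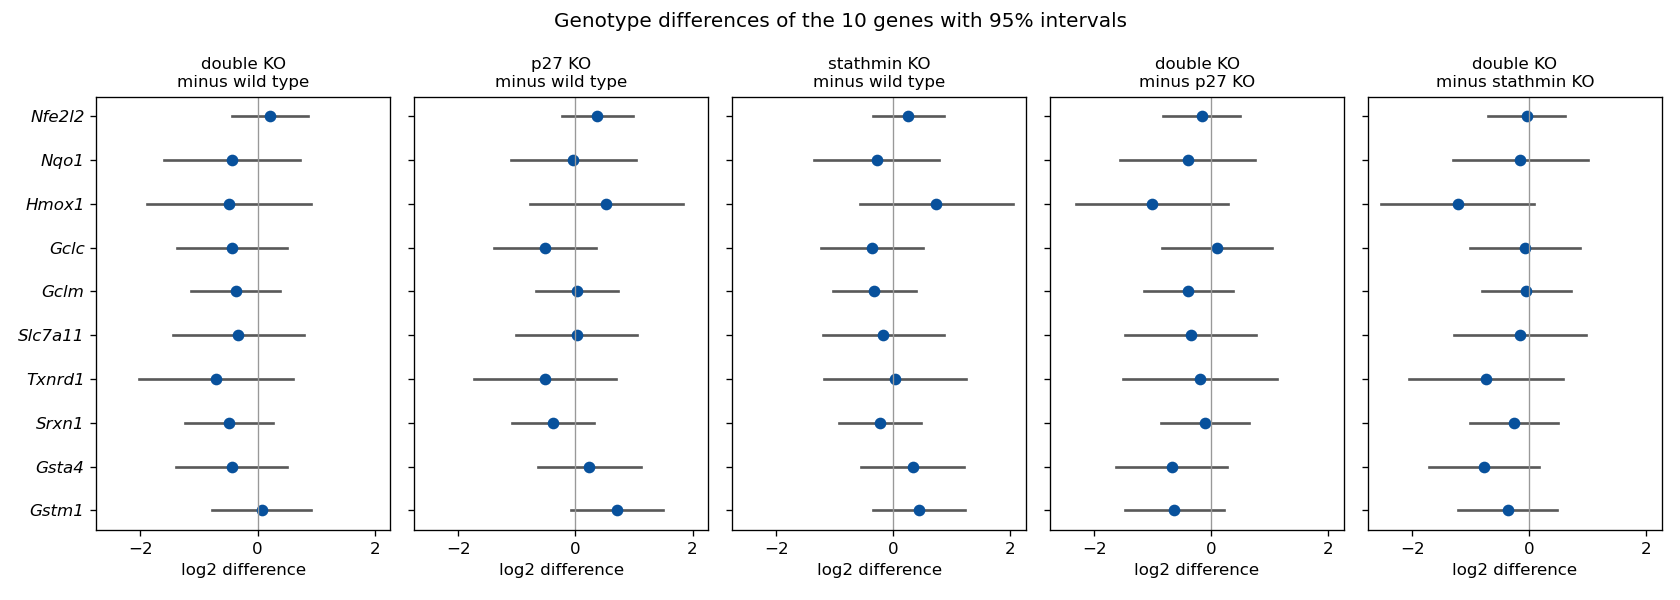
Log2 difference with its 95% interval (horizontal axes) of the 10 genes (down the page) in the 5 comparisons of 2 genotypes. Every interval includes 0, and in double knock-out against stathmin knock-out all 10 points lie at or below -0.04.

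The mean of the 10 genes on each array, after each gene was centred over the arrays, showed how far arrays of a genotype differed. It holds both differences between cultures and error of labelling and hybridisation, which cannot be told apart. On wild type 4 this mean covered 9 genes, without Hmox1. It was -0.12, -0.47 and -0.30 in double knock-out, 0.059, 0.11, 0.50 and -0.32 in p27 knock-out, -0.43, 0.68, 0.14 and -0.043 in stathmin knock-out and -0.44, -0.15, 0.39 and 0.44 in wild type. All 3 double knock-out arrays lay below 0. Double knock-out 2 was just under the lowest wild type array, and the other 2 were inside the wild type range. The SD within genotypes was 0.42 to 0.87 for the 10 genes, and the median of 18710 genes was 0.32, so all 10 spread more than the median gene. Of the variance of a member, 4.34 to 28.9% lay between genotypes and 2.12 to 44.7% between slides. Any grouping of so few arrays takes a part of the variance by chance. These shares were not tested or set against those of all genes, so they do not show an effect of genotype or slide.

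The genes most like this mean profile over the 15 arrays were Bcor, a transcriptional corepressor gene (r = 0.927), Csf1, which encodes macrophage colony-stimulating factor (r = 0.893), Taf7, a subunit of the general factor TFIID (r = 0.89), Slco4a1, an organic anion transporter gene (r = 0.882), and Vegfa, the endothelial growth factor gene (r = 0.88). Those most like Nqo1 were LOC668572 (r = 0.86), the glutathione transferase gene Gsta1 (r = 0.858), the nucleoporin gene Nup98 (r = 0.841), the phospholipase receptor gene Pla2r1 (r = 0.826) and the esterase gene Esd (r = 0.822). They were picked as the highest of all tested genes, so their r carries no test.

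Quality and cell markers were set against Txnrd1 and Hmox1, measures chosen after their values were seen. The share of spots well above background, the macrophage and blood marker mean and the fibroblast marker mean had r between -0.17 and 0.35 with the 2 genes. None of the 6 relations passed (permutation test, adjusted p of 0.905 or more for r and 0.747 or more for rho).

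Other genes of the pathway and of neighbouring stress responses were read from the same fit. Of 14 tested regulators and partners of NRF2, 0 were called in the comparisons with wild type and 0 had an unadjusted p under 0.05. Keap1, the inhibitor, read 0.26, 0.15 and -0.14 in double knock-out and -0.47, 0.38, -0.12 and 0.20 in p27 knock-out, against -0.22, -0.14, -0.77 and -0.56 in wild type. Its difference from wild type was 0.52 (SE 0.26) in double and 0.42 (SE 0.241) in p27 knock-out (limma adjusted p = 1 and 0.797), and the arrays overlapped in both comparisons. Palb2, whose protein binds Keap1, differed by 0.37 in double knock-out, where its arrays did not overlap wild type, as in 6.47% of all probes. Gsk3b, a kinase that marks NRF2 for degradation, differed by -0.32 in p27 knock-out, and Btrc and Nfe2l1 by 0.43 and 0.24 in stathmin knock-out. Btrc encodes the substrate receptor that acts after Gsk3b, and Nfe2l1 a factor related to NRF2.

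Of 38 other tested NRF2 targets, 0 were called in any comparison. At an unadjusted p under 0.05, 3 were higher in p27 knock-out against wild type (2.3% of all probes). In stathmin knock-out against wild type 1 was lower (2.99% of all probes). In double against stathmin knock-out 1 was lower, where 3.54% of all probes passed in either direction. The interaction had 1 higher and 3 lower, against 7.26% of all probes in either direction. The other comparisons had 0. Mgst1, a microsomal glutathione transferase, read -0.73, 2.75, 0.43 and -0.94 in p27 knock-out, against -1.76, -0.68, -1.51 and -1.54 in wild type (difference 1.75, SE 0.703, limma adjusted p = 0.797). Gsta3 read -0.78, 2.28, 0.57 and -0.17 in p27 knock-out, against -0.83, -0.35, -0.88 and -0.84 in wild type (difference 1.20, SE 0.529, adjusted p = 0.797). In both genes p27 knock-out 2 was the highest array, as it was for Gstm1. Txn1, the thioredoxin that Txnrd1 reduces, read 0.43, -0.66, -0.17 and -0.38 in stathmin knock-out, against 1.26, 0.42, 0.83 and -0.03 in wild type. It differed by -0.81 (SE 0.309, adjusted p = 0.917), below 0 on 4 of 4 slides, and the groups overlapped. Ephx1, an epoxide hydrolase, differed by 0.56 in stathmin knock-out, and glutathione reductase Gsr and biliverdin reductase Blvra by -0.49 and -0.25 in double knock-out.

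Of 25 antioxidant genes not mainly set by NRF2, 0 were called. Mt2, a metallothionein that binds zinc and cadmium, read -0.35, 2.59, 0.11 and 1.98 in stathmin knock-out. Wild type read -1.35, -0.77, -2.10 and -1.74, and the groups did not overlap, as in 3.11% of all probes. The difference was 2.57 (SE 1.16, limma adjusted p = 0.917). In p27 knock-out Mt2 differed by 2.12 (adjusted p = 0.797) and read 4.96 on p27 knock-out 2. Mt1 differed by 1.33 in p27 knock-out (SE 0.652, adjusted p = 0.797). Prdx3, the mitochondrial peroxiredoxin, read -0.10, -0.14 and -0.25 in double knock-out, against -0.04, 0.12, 0.15 and 0.08 in wild type. These groups also did not overlap, as in 6.47% of all probes, and the difference was small (-0.24, SE 0.11, adjusted p = 1). Prdx3 differed by -0.20 in stathmin knock-out, and the peroxidase gene Gpx8 by 0.26 in double knock-out.

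The integrated stress response is driven by ATF4 and also acts on Slc7a11. Of 20 of its genes, 0 were called, and 4, 6 and 8 lay above 0 in double, p27 and stathmin knock-out against wild type. The shares of all probes above 0 were 48.9%, 49.7% and 50.4%. Mthfd2, a mitochondrial folate enzyme, differed by -0.87 and the arginine transporter Slc7a1 by -0.43 in p27 knock-out. In stathmin knock-out Ddit4, an inhibitor of mTORC1, differed by 0.44 and Slc7a1 by -0.35, and in double knock-out Slc7a1 by -0.38 and Vldlr by -0.56. Of 10 genes induced by hypoxia through HIF1, 0 were called. In double, p27 and stathmin knock-out against wild type, 5, 10 and 8 lay above 0 (48.9%, 49.7% and 50.4% of all probes). The medians were -0.02, 0.59 and 0.25. In double against p27 knock-out 0 of the 10 lay above 0 (50.2% of all probes), with a median of -0.68. Genes of a list were read from the same arrays and are not independent, so these counts carry no test. Ndrg1 and Ankrd37 differed from wild type by 0.61 and 1.05 in p27 knock-out, Car9 and Ankrd37 by 1.26 and 0.74 in stathmin knock-out, and Ndrg1 and Pdk1 by -0.35 and -0.29 in double knock-out (limma adjusted p of 0.797 or more).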

How the data were processed

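RNA of 15 fibroblast samples was hybridised to 2-colour Agilent arrays on 4 slides, without dye swaps. The deposited scanner files hold the mean signal and background of each spot as intensity and the log10 ratio of Cy5 over Cy3, written by Feature Extraction 9.1.3.1 without background subtraction, per the file headers. The deposited value table holds log2 ratios whose normalization is not given in the sources used here. Its columns had r of 0.821 to 0.936 with the scanner ratios, a slope of 0.915 to 0.977 (same direction) and medians of 0.0039 to 0.0522.

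Intensities were corrected with normexp (offset 50) and normalized within arrays by loess in limma 3.58.1 (R 4.3.3). Control spots had weight 0, spots marked as outliers were left out, which removed Hmox1 on wild type 4, and replicate spots were averaged. A probe entered the tests with a sample signal well above background on 3 or more arrays of 1 genotype. The fit had 1 mean per genotype over 15 arrays (11 residual degrees of freedom), 6 contrasts and Benjamini-Hochberg adjustment over all tested probes. The brightest tested probe stood for a gene. Permutation tests drew 100000 permutations, and 1e-05 is the smallest p they can give. All tests were two-sided and the scripts were tested on simulated data.

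Probes were named by accession (22951), current symbol (6659), older symbol (3109) or the name in the file (8455). The genes and lists were chosen with earlier results of these data known. All 10 genes are described by their brightest tested probe and by other probes in part, and not every difference is printed. Of each other list, called genes, or otherwise the 2 with the smallest p in each comparison with wild type, are named, and the 5 genes most like the mean of the set and most like Nqo1. Alternatives covered background, normalization, filters, channel, slide and replicate blocks, weights and each array left out. Those for pairs of genes, and the averaging of wild type 3 and 4 for the relations with Nfe2l2, were chosen after seeing the data. Nothing says which embryos the cultures came from, so p-values measure the spread between these samples.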

Additional observations from a re-analysis of the deposited data

Results flagged for a closer look

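Among 53 groups of 4 arrays, 5 (9.4%) held an array far from the other 3, with a gap past Dixon's 95% critical value. Chance gives about 1 in 20 for independent groups. A group is 1 probe in 1 genotype, and probes of a gene share arrays, so the groups are not independent. The share of 9.4% therefore does not show an excess. Hmox1 read 1.64 on stathmin knock-out 2, and the nearest other stathmin knock-out array read -0.12. Nqo1 read -1.12 on wild type 1, and the nearest other wild type array read 0.47. Slc7a11 read -1.07 on p27 knock-out 1 with its brightest probe and -0.93 with A_52_P663446, where the nearest other p27 knock-out arrays read 0.78 and 0.72. Gstm1 read -0.82 on wild type 3, and the other wild type arrays lay between -0.57 and -0.54. The second Gstm1 probe did not set that array apart, with -0.79, -0.37, -0.75 and -0.63 on wild type 1 to 4.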

How the results depend on the processing

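Under 31 alternatives no member probe was called in any of 185 recomputed counts. At most 7 had an unadjusted p under 0.05 (array weights, double knock-out against wild type, lowest limma adjusted p = 0.114). In that setting and comparison 5088 of all tested probes reached this level, against 626 of 27677 in the main fit. Of 1850 recomputed gene differences 0 passed, 89 changed sign and 1 moved by over 1 SD, the Hmox1 interaction, -0.87 with array weights. Many of them could not move, so these counts are no measure of stability. Filters on dim probes, and leaving out an array of a genotype outside the comparison, do not change a difference. The median of the 10 genes ran from -0.62 to -0.25 in double, from -0.19 to 0.22 in p27 and from -0.28 to 0.19 in stathmin knock-out against wild type.

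Over all probes, the calls numbered 1 in double against p27 knock-out, 1 in double knock-out against wild type, 2 in stathmin knock-out against wild type and 0 in the other comparisons. Array weights gave 2, 29 and 13 in those 3, 1 in double against stathmin knock-out and 2 in the interaction. With 1 probe per gene they were 0, 0 and 1, and with a variance trend 0 in both double knock-out comparisons. The deposited table, the slide as a block and the slide as a random block gave 2 in both. In stathmin knock-out against wild type, only the genotypes compared gave 1 and the sample channel alone 1. Leaving out 1 array gave 1 to 2, 1 to 2 and 1 to 3 in the same 3, 0 to 1 in double against stathmin knock-out and 0 to 1 in the interaction. The cause was not tested. Gstm1 with Nfe2l2, the 1 relation that passed, left 0 with genotype means out, slide means out, the sample channel alone or without the 2 farthest arrays.

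The labels do not say what a replicate number marks. The replicate number is also the slide number on every array except double knock-out 2 and 3. The main fit did not treat the numbers as pairs. Of 21 same-number pairs 12 had r over 0.1 (range -0.33 to 0.42), and 5 of 15 arrays were most like their own number. Whether arrays of a number share a batch was not tested, and these values do not show that they share nothing. With the replicate block, 2 probes were called in double against p27 knock-out, 2 in double knock-out against wild type, 3 in stathmin knock-out against wild type and 0 in the others. At an unadjusted p under 0.05 the block gave more probes in each comparison. There were 1804 with it and 800 without in double against p27 knock-out, 1843 and 981 in double against stathmin knock-out, and 3289 and 2010 in the interaction. Against wild type there were 1218 and 626 in double, 2390 and 1610 in p27 and 2277 and 1328 in stathmin knock-out. Of the 18 member probes, 17 were well above background on 15 of 15 arrays and 1 on 11.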
